A study of Mus musculus with 10 samples.

Results

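The choline transporter-like family (Slc44a1, Slc44a2, Slc44a3, Slc44a4 and Slc44a5) and 4 enzymes of choline oxidation (Chdh, Aldh7a1, Bhmt and Dmgdh) were examined in mouse jejunum in which Pcyt1a had been targeted. These 9 genes were chosen by name, all 9 were measured, and they are 9 of 22180 genes with a probe set of their own on the array. The tested mice were Pcyt1a LoxP/LoxP with VilCreERT2 (5 arrays, labelled Fed Knockout), and they were set against Pcyt1a LoxP/LoxP mice without Cre (5 arrays, labelled Fed Control). VilCreERT2 is a Cre recombinase that the villin promoter drives in intestinal epithelium and that tamoxifen switches on. Both groups were females of 10 to 12 weeks and had tamoxifen for 5 days. Both ate a high fat diet for 3 days, were fasted overnight and had the diet again for 2 hours before 3 cm of jejunum was frozen. As Cre was carried by the knockout group alone, an effect of Cre and loss of Pcyt1a cannot be told apart. The labels name no separate animal for each array, so the p-values cover the variation among these 10 samples, part of which may be technical.

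Choline is a nutrient that cells cannot make freely and must largely import. Inside the cell it has competing uses. Choline kinase and then the product of Pcyt1a commit it to phosphatidylcholine, the main phospholipid of membranes and of the chylomicron surface. In mitochondria it can instead be oxidised to betaine, which donates a methyl group to homocysteine and leaves dimethylglycine and then sarcosine. The comparison therefore asks whether transcripts for choline entry and for its oxidation differ where the phospholipid branch is targeted.

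The targeted gene was low in every knockout array. Pcyt1a had intensities of 191.9, 177.2, 191.0, 151.4 and 202.5 in knockouts 1 to 5, against 565.4, 615.5, 493.5, 599.0 and 727.3 in controls 1 to 5. It fell by 1.71 on the log2 scale (SE 0.11, limma adjusted p = 6.51e-05). Among the 9 genes of choline entry and oxidation, by contrast, 0 passed the test. The test was limma on log2 intensity over all 22180 genes, with genes called at a Benjamini-Hochberg adjusted p under 0.05, and 0.343% of all genes were called (76 genes). At an unadjusted p under 0.05 there were 2 of the 9, Slc44a4 with a higher and Slc44a5 with a lower knockout mean, where 12.1% of all genes lay under that value. In none of the 9 did the 5 knockout arrays all lie on 1 side of the 5 control arrays, which was so for 2.77% of all genes. Knockout means were higher for 4 members and lower for 5. The median difference of the 9 was -0.02 on the log2 scale, beside -3.54e-04 over all genes, and the median size of the difference regardless of sign was 0.11, beside 0.10 over all genes.

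**Figure D1:**
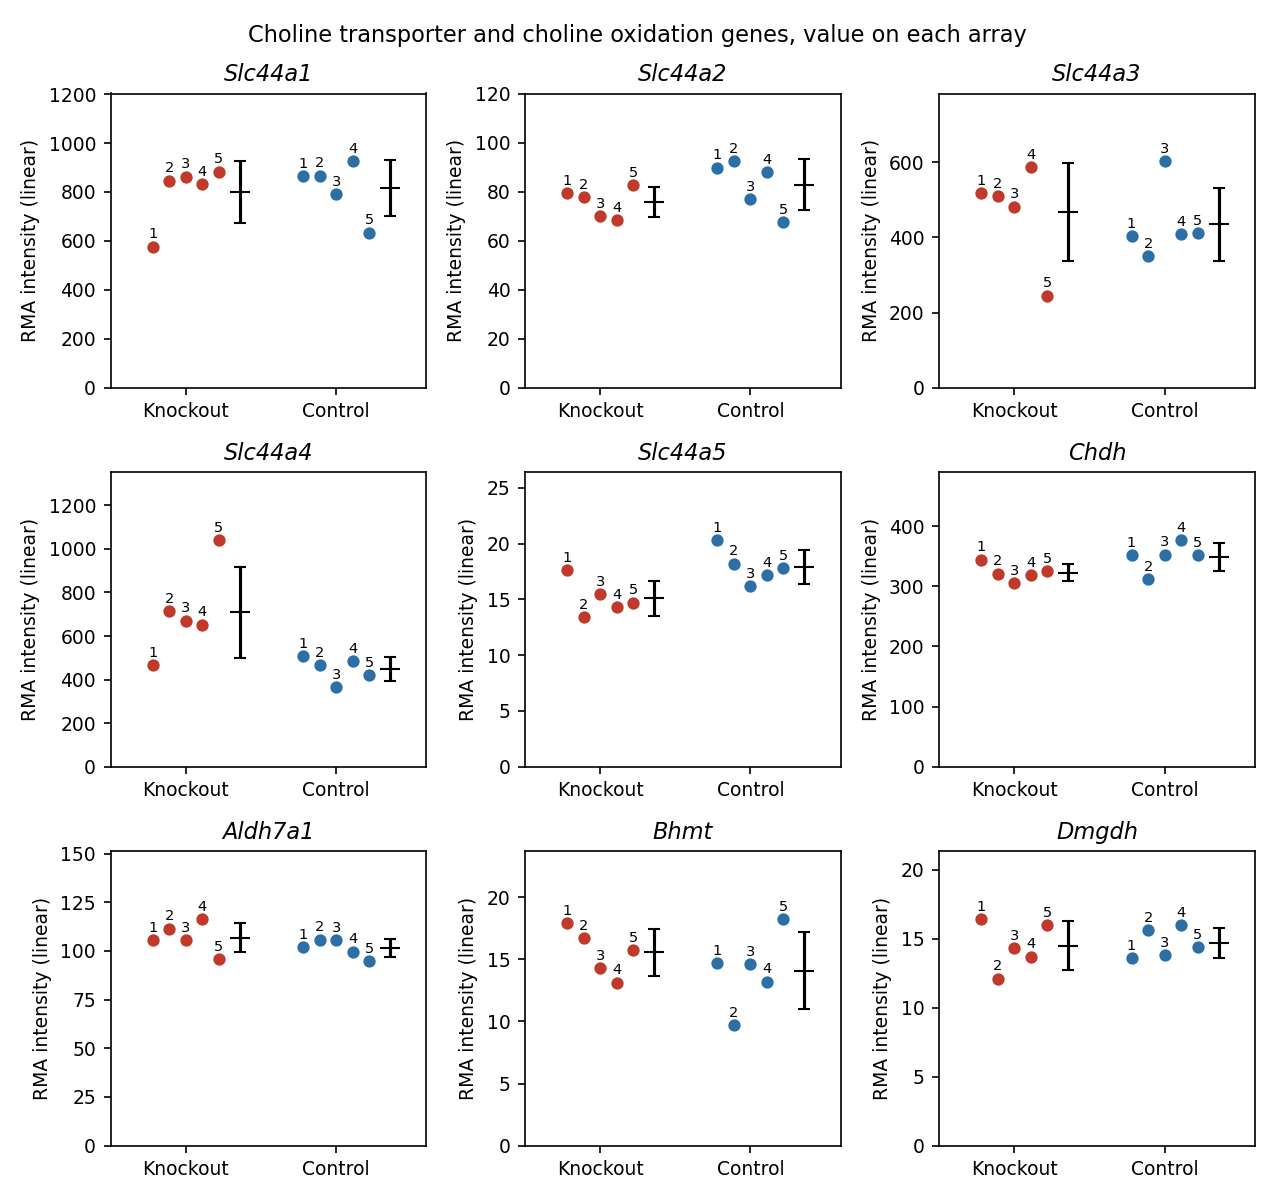
Linear RMA intensity of each of the 9 genes on each array, with knockout arrays in red on the left, control arrays in blue on the right, the replicate number above each point, and the mean ± SD (n = 5) in black; each panel has its own axis from 0. Slc44a4 lay above 506.6, the highest control value, on knockout arrays 2 to 5 and at 466.9 on knockout 1, and the groups overlapped in every panel.

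Slc44a4 had the largest difference of the 9. It encodes choline transporter-like protein 4, a plasma membrane carrier that in human colon cells takes up thiamine pyrophosphate, the vitamin B1 cofactor. Its intensities were 466.9, 715.7, 670.0, 652.0 and 1039.3 in knockouts 1 to 5, against 506.6, 465.3, 365.8, 483.5 and 421.2 in controls 1 to 5. Thus 4 of 5 knockout arrays lay above every control, and knockout 1 lay among the controls. The log2 intensity averaged 9.42 ± 0.41 in knockout and 8.80 ± 0.19 in control (SD, n = 5 each). The difference was 0.62 (SE 0.18), a ratio of 1.54 with an interval of 1.18 to 2.01 (95%, for this gene alone), and it did not pass over all genes (limma adjusted p = 0.167). Without knockout 1 it was 0.76 (SE 0.15) and passed (limma adjusted p = 0.0360). That omission also raised the genes called over all genes from 76 to 268. Without any 1 of the other 9 arrays Slc44a4 did not pass (limma adjusted p 0.184 to 0.336). Over the 19 alternatives its adjusted p ran from 0.0360 to 0.751, and its direction was the same in all 19.

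Markers of position along the small intestine moved with Slc44a4. Of the 9 measured genes in a list of ileum markers, 8 had higher and 1 lower values in knockout, and 0 were called. Their summed intensity was 10770 to 21090 in knockout and 12190 to 16760 in control. The mean of the list, with each gene centred over the 10 arrays, was -1.02, 0.99, 0.55, 0.64 and 1.09 in knockouts 1 to 5, against -0.52, -0.00155, -0.61, -0.41 and -0.71 in controls 1 to 5. Knockout 5 was highest in both this mean and Slc44a4, and knockout 1 was lowest of all arrays in the mean and within the control range in Slc44a4. Fabp6, the ileal bile acid-binding protein and a defining gene of the list, had intensities of 19.9, 2360.2, 386.4, 705.0 and 1220.1 in knockouts 1 to 5, against 20.5 to 41.5 in controls. It had the largest difference of the list (3.89), followed by Slc10a2 (2.23). Osr2, Nr1h4 and Mep1a differed by 0.19, 0.20 and 0.27. Cubn was the 1 gene lower in knockout, at 2214.1 to 4437.1 against 4789.4 to 6057 in control (-0.84). Proximal markers ran the other way, with 3 of 11 higher and 8 of 11 lower in knockout, 0 called, and summed intensities of 24180 to 33440 in knockout and 30300 to 37420 in control. Some ileum markers were low, with Fabp6 in all controls and in knockout 1 under the array medians of 45.8 to 48.1. Enteroendocrine markers moved opposite to Slc44a4, with list means of 0.04, -0.25, -0.14, -0.28 and -0.40 in knockouts 1 to 5, against 0.12 to 0.27 in controls. Over the 10 arrays the correlation with Slc44a4 was -0.913 for this list and 0.883 for the ileum list. The part of the enteroendocrine list in the difference was not tested. With the ileum list mean as a covariate, the difference in Slc44a4 was 0.26 (SE 0.16, limma adjusted p = 0.751). With that covariate 4 genes were called over all genes, against 76 without it. The list mean lay above every control in knockouts 2 to 5. It and group therefore cannot be fully told apart in such a fit, here or for the genes below. The part of position in the difference was not tested.

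**Figure D2:**
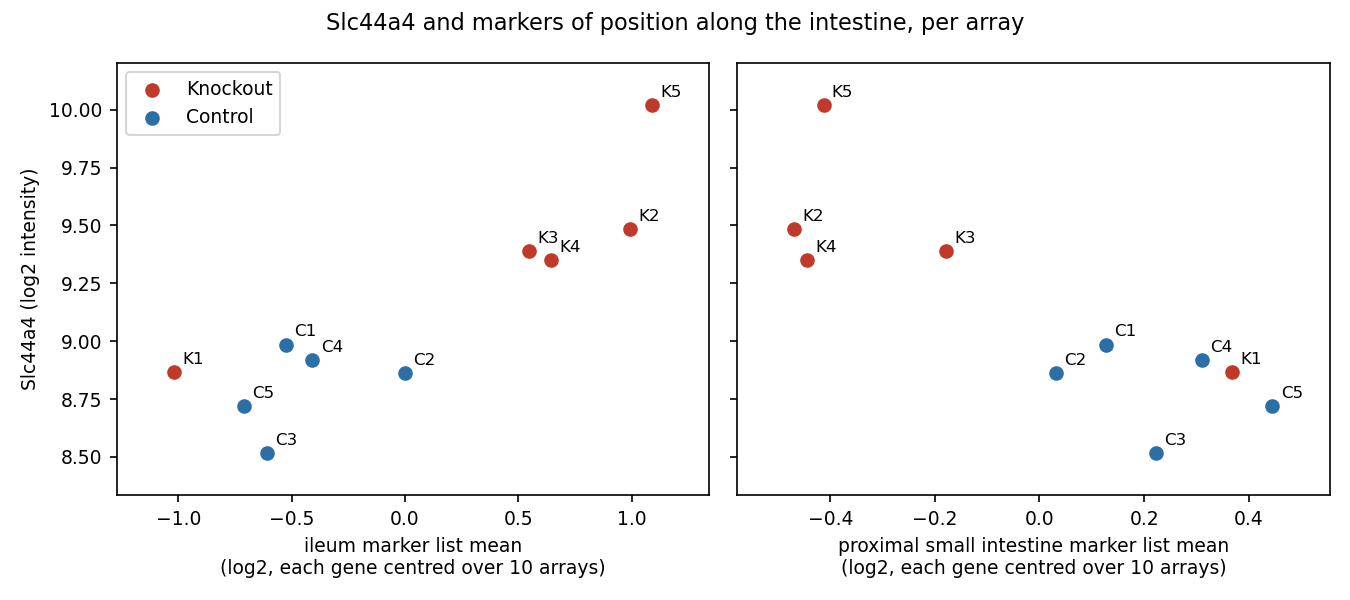
Log2 intensity of Slc44a4 on each array (vertical) against the mean of the ileum marker list (left) and of the proximal marker list (right), each gene centred over the 10 arrays, with K1 to K5 for knockout arrays in red and C1 to C5 for control arrays in blue. Knockouts 2 to 5 had the highest Slc44a4, ileum list means of 0.55 to 1.09 and proximal list means below 0, while knockout 1 lay with the controls on both axes of both panels or beyond them.

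**Figure D3:**
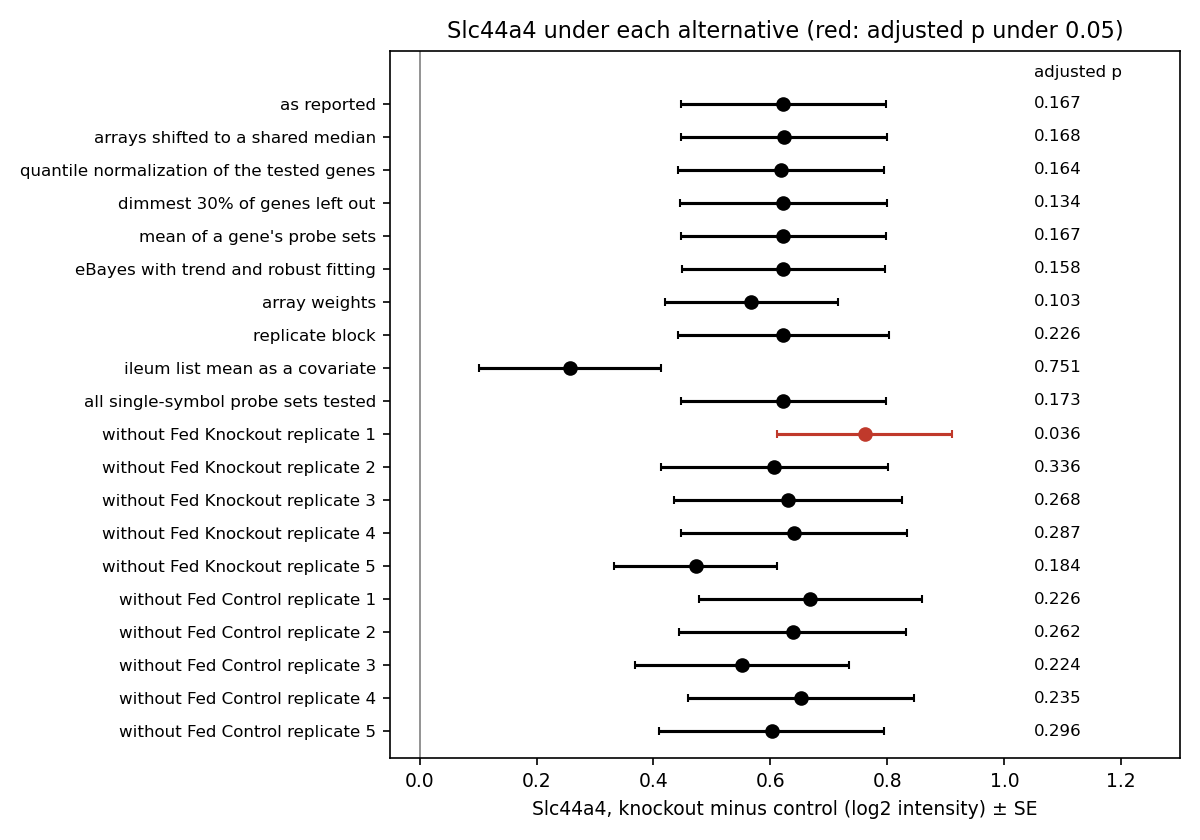
Difference in Slc44a4, knockout minus control in log2 intensity ± SE, as reported and under each of 19 alternatives, with the limma adjusted p on the right. The difference ran from 0.26 with the ileum list mean as a covariate to 0.76 without knockout 1, which was the setting under which it passed (red).

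Slc44a1 encodes the best studied carrier of the family, which moves choline across the plasma membrane and the mitochondrial membrane. Its intensities were 576.4, 846.9, 862.1, 832.0 and 882.8 in knockouts 1 to 5, against 864.7, 866.8, 791.8, 925.1 and 633.0 in controls 1 to 5. Knockout 1 and control 5 were the low arrays, and the other 8 lay between 791.8 and 925.1. These were also the arrays with the highest mean of the proximal marker list, 0.37 in knockout 1 and 0.45 in control 5. Control 4, next in that mean at 0.31, had the highest Slc44a1 of all 10 arrays. The correlation of Slc44a1 over the 10 arrays was -0.546 with the proximal list and 0.598 with the ileum list. With the Paneth cell and goblet cell lists it was 0.608 and 0.604. The part of these lists in the values of Slc44a1 was not tested. The difference was -0.03 (SE 0.14, limma adjusted p = 0.955), with an interval from 0.79 to 1.20 times the control level. It was -0.31 (SE 0.12, limma adjusted p = 0.583) with the ileum list mean as a covariate and 0.08 without knockout 1.

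Slc44a2 encodes a choline transporter-like protein found in the plasma membrane and in mitochondria, known in human as a neutrophil antigen. It had intensities of 68.4 to 82.8 in knockout (79.5, 77.7, 70.1, 68.4 and 82.8) and of 67.5 to 92.4 in control (89.8, 92.4, 77.1, 87.9 and 67.5). Controls 1, 2 and 4 lay above every knockout array, while controls 3 and 5 lay among or below them. The difference was -0.13 (SE 0.10, limma adjusted p = 0.698), with an interval from 0.78 to 1.07 times the control level, and it was -0.20 without control 5.

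Slc44a3, a less studied relative, varied most within a group. Its intensities were 518.1, 509.6, 481.5, 586.6 and 244.8 in knockouts 1 to 5, against 403.2, 349.3, 602.4, 409.5 and 411.4 in controls 1 to 5. Knockout 5 was the lowest of all 10 arrays and control 3 the highest. The difference was 0.07 (SE 0.22, limma adjusted p = 0.938), with an interval as wide as 0.76 to 1.46 times the control level. Without knockout 5 it was 0.29, and without knockout 4 it was -0.03. Knockout 5 thus held the highest Slc44a4 and the lowest Slc44a3 of all 10 arrays. The mean of the proliferation list was -0.48 in knockout 5, against 0.36 to 0.77 in the other knockouts, and control 3 had the highest control value of it, 0.41. Aldh7a1 followed that list too, with a correlation over the 10 arrays of 0.858, beside 0.745 for Slc44a3. With the enterocyte list the correlation was negative and larger in size, at -0.877 for Aldh7a1 and -0.784 for Slc44a3. The part of either list in the values of these genes was not tested.

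Slc44a5, also little studied, had low intensities on every array. They were 17.6, 13.4, 15.5, 14.3 and 14.7 in knockouts 1 to 5, against 20.3, 18.2, 16.2, 17.2 and 17.8 in controls 1 to 5. The knockout arrays 2 to 5 lay below every control, and knockout 1 lay within the control range. The difference was -0.25 (SE 0.09, limma adjusted p = 0.315), a ratio of 0.84 with an interval of 0.73 to 0.97 for this gene alone. Slc44a5, Bhmt and Dmgdh were among the dimmest 30% of genes by mean log2 intensity. Detection calls were not used here, so at these levels a transcript cannot be told from background. With the ileum list mean as a covariate the difference in Slc44a5 was -0.13 (SE 0.11).

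None of the 4 oxidation enzymes was called, and 2 of them, Bhmt and Dmgdh, were dim. Chdh, choline dehydrogenase of the inner mitochondrial membrane, takes the first step towards betaine. It had intensities of 344.2, 321.2, 304.9, 318.1 and 324.9 in knockouts 1 to 5, against 351.4, 311.8, 352.7, 376.3 and 351.3 in controls 1 to 5. The knockout values lay close together and mostly below the controls, though control 2 lay among them. The difference was -0.11 (SE 0.08, limma adjusted p = 0.626), and the interval ran from 0.82 to 1.04 times the control level. With the ileum list mean as a covariate it was -0.05 (SE 0.10). Chdh had the smallest spread of the 9 between knockout arrays, an SD of 0.063 on the log2 scale.

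Aldh7a1 encodes an aldehyde dehydrogenase that turns betaine aldehyde into betaine and also acts in lysine breakdown. Its intensities were 105.4, 111.4, 105.4, 116.2 and 95.9 in knockouts 1 to 5, against 101.8, 105.7, 105.4, 99.7 and 94.8 in controls 1 to 5. The groups overlapped, with knockouts 2 and 4 above the highest control. The difference was 0.07 (SE 0.08, limma adjusted p = 0.780), with an interval from 0.93 to 1.18 times the control level. It ran from 0.04 without knockout 4 to 0.11 without knockout 5, and was 0.05 without control 5. A second probe set, shared between Aldh7a1 and its neighbour Phax and so left out of the test, read 85.3 to 100.7 in knockout and 71.7 to 97.6 in control, a difference of 0.13 (SE 0.10).

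Bhmt, betaine-homocysteine methyltransferase, and Dmgdh, the mitochondrial dimethylglycine dehydrogenase, act in turn after betaine and are best known from liver and kidney. In the RefSeq gene order (assembly GRCm38.p6), Bhmt2 lies between them. Bhmt read 17.9, 16.7, 14.3, 13.1 and 15.7 in knockouts 1 to 5, against 14.7, 9.7, 14.6, 13.2 and 18.2 in controls 1 to 5. Control arrays held both its lowest and its highest value, and the difference was 0.16 (SE 0.15, limma adjusted p = 0.733). It was 0.04 without control 2, 0.26 without control 5 and 0.34 (SE 0.18) with the ileum list mean as a covariate. Dmgdh read 12.1 to 16.4 in knockout and 13.6 to 16.0 in control, a difference of -0.02 (SE 0.10, limma adjusted p = 0.958). The intervals were 0.89 to 1.40 times the control level for Bhmt and 0.85 to 1.14 times for Dmgdh, on values near the dim end of the arrays.

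**Figure D4:**
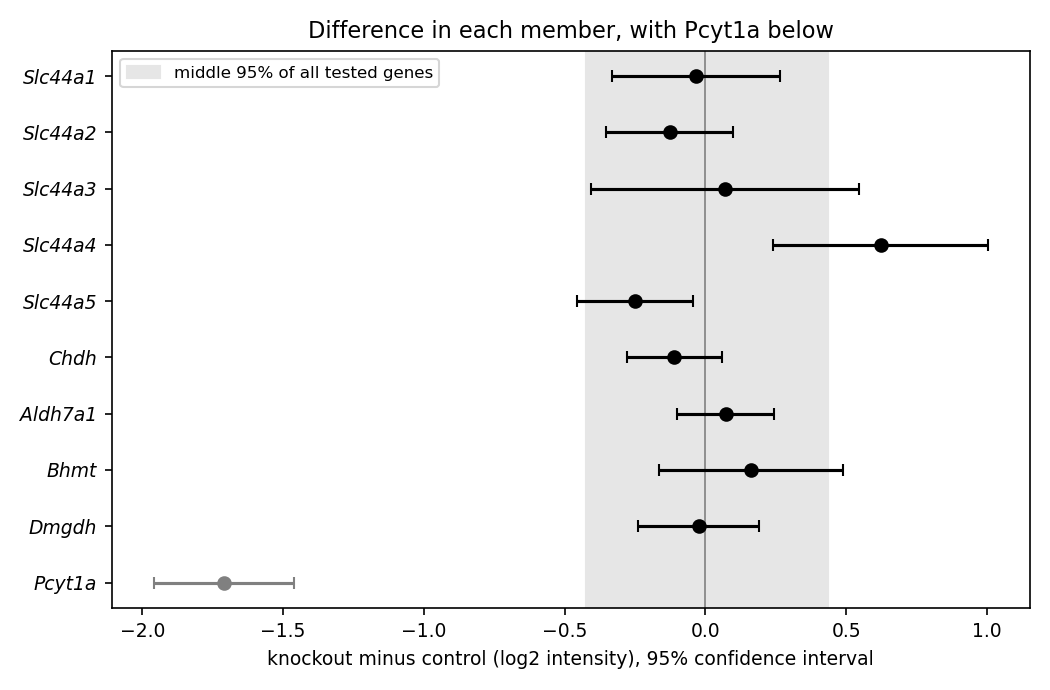
Difference in each of the 9 genes and in Pcyt1a, knockout minus control in log2 intensity, with the 95% confidence interval of each gene from limma; the grey band spans the middle 95% of the differences of all 22180 genes, from -0.42 to 0.43. Slc44a4 (0.62) was the member outside the band, and Pcyt1a stood at -1.71.

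Around these 9 genes, pathway lists chosen by name gave 2 calls, Pipox and the targeted gene Pcyt1a itself. Over all genes 0.343% were called. Of the 16 measured genes of methyl metabolism downstream of betaine, 1 fell, 0 rose and 15 did not pass (median difference 5.56e-04). The one that fell was Pipox, a peroxisomal oxidase of sarcosine and pipecolate, which acts on the product of Dmgdh. Pipox had intensities of 588.8, 569.0, 602.8, 534.4 and 304.6 in knockouts 1 to 5, against 1068.5, 854.4, 952.2, 1020.4 and 972.1 in controls 1 to 5. All knockout arrays lay below all controls, and the difference was -0.94 (SE 0.17, limma adjusted p = 0.0388). The call held without knockout 1 (adjusted p = 0.0272) and without knockout 5 (0.00988, difference -0.76) and was lost without any 1 of the other 8 arrays (0.0519 to 0.105). With the ileum list mean as a covariate the difference was -0.73 (SE 0.20, adjusted p = 0.364). The next genes of the list by p were Mat1a, a methionine adenosyltransferase (0.27, SE 0.11), Mtr, methionine synthase (0.25, SE 0.12), and Cth, cystathionine gamma-lyase (0.24, SE 0.16), and they did not pass. Mat1a was also among the dimmest 30% of genes. Cth was at 0.41 without knockout 5 and 0.15 without knockout 4, and with the ileum covariate Cth was at 0.42 and Mat1a at 0.44.

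Another list held phosphatidylcholine synthesis from choline, and Pemt, the methyltransferase that makes it from phosphatidylethanolamine. Of its 5 measured genes 1 fell, Pcyt1a itself, and 4 did not pass. The median difference of -0.51 counts the targeted gene. Knockout means were lower for 3 of the 5, Pcyt1a among them, and higher for 2. Chkb and Cept1, also on the list, were not measured. Chka, choline kinase, which takes the first step after choline entry, had intensities of 1331.4, 633.9, 831.3, 737.5 and 989.4 in knockouts 1 to 5, against 1709.4, 1506.3, 1321.6, 991.3 and 1691.2 in controls 1 to 5. Knockout 1 was the highest knockout and control 4 the lowest control, and the difference of -0.70 (SE 0.20, limma adjusted p = 0.174) passed without knockout 1 (-0.85, adjusted p = 0.0448). It was -0.36 (adjusted p = 0.417) with the mean of the gene's probe sets and -0.38 (adjusted p = 0.733) with the ileum list mean as a covariate. Chpt1, choline phosphotransferase, was at -0.51 (SE 0.20), and at -0.03 (SE 0.14) with that covariate. Pemt was at 0.13 (SE 0.08).

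Among 14 measured genes that release choline or its esters from phospholipids, 0 were called. Gdpd1, a phosphodiesterase that cleaves choline from lysophosphatidylcholine, came closest. Its intensities were 1928.6, 3557.7, 3041.9, 3857.0 and 3470.0 in knockouts 1 to 5, against 1603.2, 1762.0, 1546.7, 1928.9 and 1205.4 in controls 1 to 5. Knockouts 2 to 5 lay well above every control, and knockout 1 lay just below the highest of them. The difference was 0.96 (SE 0.18, limma adjusted p = 0.0537). It passed under 4 of 19 alternatives: without knockout 1 (1.13, adjusted p = 0.00481), with array weights (0.0263), with the dimmest 30% of genes left out (0.0444) and with trend and robust fitting (0.0460). It was 0.55 (SE 0.14, adjusted p = 0.328) with the ileum list mean as a covariate. The lysophospholipase gene Pnpla7 was at -0.38 (SE 0.09, adjusted p = 0.106), the glycerophosphodiesterase gene Gde1 at -0.58 (SE 0.16) and Lypla1, an acyl thioesterase with lysophospholipase activity, at 0.27 (SE 0.11). With the ileum covariate Gde1 was at -0.33 and Lypla1 at 0.07.

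Of 14 other measured carriers of choline, betaine or lysophosphatidylcholine, 0 were called, 6 had higher and 8 lower knockout means, and the median difference was -0.05. Slc6a20b and Slc6a20a, carriers of proline-like amino acids and betaine, were at -0.51 (SE 0.12, limma adjusted p = 0.107) and -0.28 (SE 0.12), and their probes may not tell these relatives apart. Slc6a20a was at -0.09 with the ileum covariate. Flvcr1, a choline carrier, was at -0.29 (SE 0.10). Mfsd2a, which carries lysophosphatidylcholine, was at -0.85 (SE 0.37), and at -0.00357 (SE 0.27) with the ileum list mean as a covariate. In the list of acetylcholine and trimethylamine genes 0 of 9 were called, with Crat, carnitine acetyltransferase, at -0.36 (SE 0.16), the flavin monooxygenase genes Fmo5 and Fmo1 at -0.25 (SE 0.12) and 0.29 (SE 0.14), and Bche, butyrylcholinesterase, at -0.43 (SE 0.20). With the ileum covariate Crat was at -0.10, Bche at -0.11 and Fmo1 at 0.50. Crat was at -0.17 with the mean of its probe sets, and Bche at -0.26 without knockout 5.

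**Figure D5:**
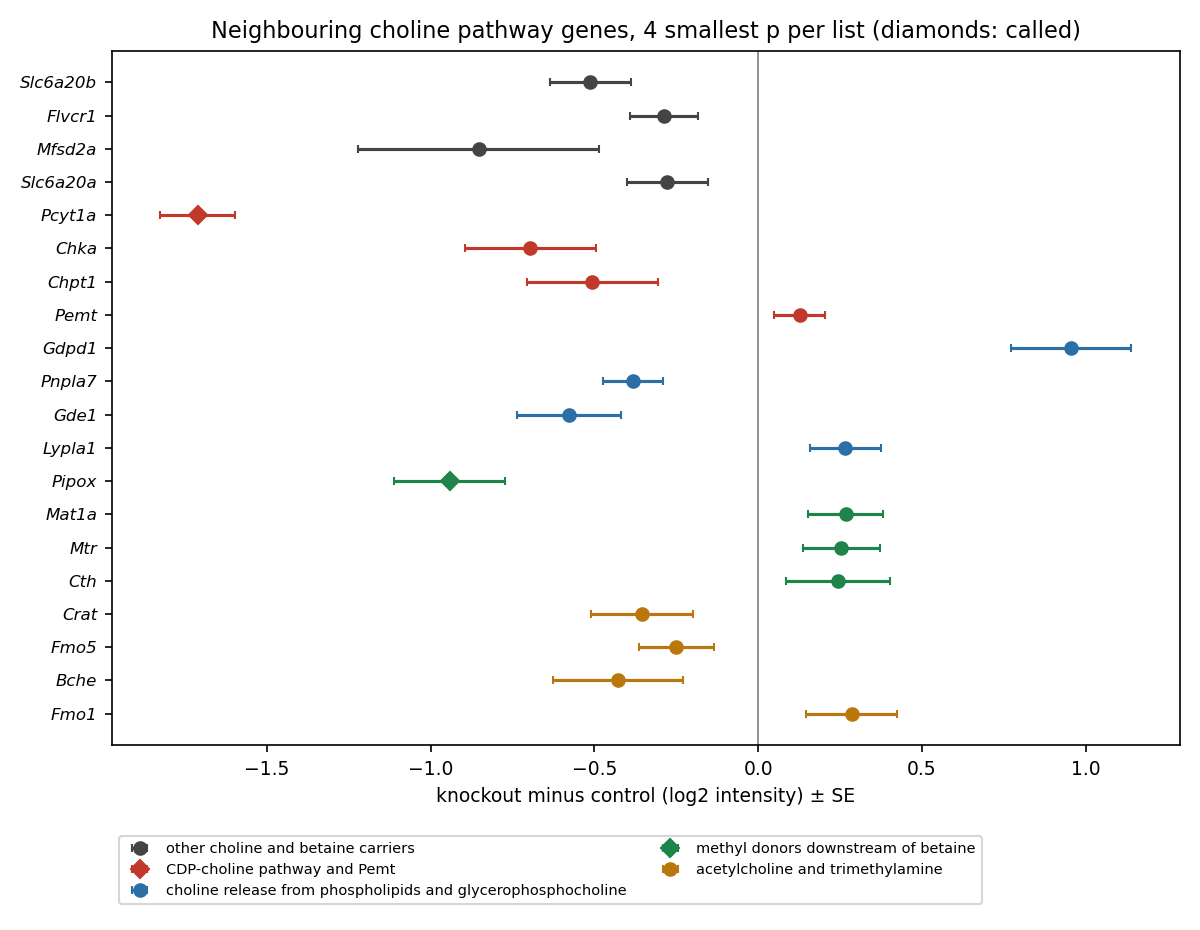
Difference in the 4 genes with the smallest p of each of 5 pathway lists, knockout minus control in log2 intensity ± SE, coloured by list, with diamonds for genes at limma adjusted p under 0.05. Pcyt1a (-1.71) and Pipox (-0.94) were called, and Gdpd1 had the largest positive difference (0.96).

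Genes whose pattern was most like that of Slc44a4 and Slc44a5 were found by the correlation of log2 intensity over the 10 arrays after each group's mean was taken off, as a description. For Slc44a4 they were Arhgap5 (r = 0.979), Misp (r = 0.975) and Mst1r (r = 0.972). Over all 10 arrays without that step, r was 0.364 for Arhgap5, 0.986 for Misp, which encodes an actin-binding protein, and 0.895 for Mst1r, a receptor tyrosine kinase gene. Misp itself was at 0.46 (limma adjusted p = 0.247). For the dim Slc44a5 they were Gm21123, Anxa3 and Olfr437 (r = 0.939, 0.935 and 0.923), and without that step r was 0.654 for Gm21123, 0.411 for Anxa3 and 0.464 for Olfr437.

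Enterocyte markers were bright on every array, while the markers of position given above differed between arrays. All 12 enterocyte genes listed were measured, with summed intensities of 85910 to 96420 in knockout and 87230 to 97610 in control, and 0 were called. Markers of other cells also moved with group in part, and in bulk tissue fewer cells of a type and less RNA per cell cannot be told apart. All 9 enteroendocrine markers had lower values in knockout (2 called, summed intensity 1991 to 2731 in knockout and 3093 to 3577 in control), and 6 of 8 tuft cell markers did (1 called, 508.6 to 573.5 in knockout and 632.5 to 715.9 in control). All 9 proliferation markers (summed intensity 1265 to 3272 in knockout and 918.0 to 2651 in control) and all 8 stroma and endothelium markers (1184 to 1983 in knockout and 726.5 to 1528 in control) had higher values, with 0 called in either list. Goblet cell markers were lower for 7 of 9 (24530 to 30540 in knockout and 26650 to 33400 in control). Immune markers were lower for 6 of 8 (1357 to 2568 in knockout and 1063 to 2790 in control). In these 2 lists 0 were called, and over all genes 0.343% were. The part of any of these lists in the differences above was not tested. Median intensity per array lay between 45.8 and 48.1.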

How the data were processed

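RNA of 10 jejunum samples was measured on Affymetrix whole-transcript arrays. Per the submitters' processing notes, the authors used Affymetrix Expression Console 1.4.1.46 with RMA. No build or other setting of that step is given in the sources used here. The values deposited are linear intensities with 1 decimal, and log2 was taken here. RMA makes arrays alike in distribution, so a change common to most transcripts would be hidden. All columns were mapped to samples by accession and titles.

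Gene symbols came from GEO's platform annotation. Probe sets with 1 symbol were kept (23521 of 41345), and the brightest over the 10 arrays stood for each of 22180 genes. Each of the 9 genes had 1 such probe set. The comparison used limma 3.58.1 in R 4.3.3 (lmFit, eBayes, group only), with Benjamini-Hochberg over all genes, and the code was tested on simulated data. The number of arrays limits the precision. The members and lists were chosen with earlier results of these data known. Named genes are the 9 members, Pcyt1a, the 4 smallest p of each pathway list and the 3 genes most like each of the 2 members with the smallest p. Sequences were not used here. Alternatives were another scaling, a filter on dim genes, mean probe sets, the ileum list as a covariate, array weights, trend with robust fitting, a replicate block, a threshold of 0.1, all probe sets, and omission of each array. Same-numbered arrays did not deviate together (r of deviations from group means -0.135 to 0.125), so the numbers were not taken as pairs.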

Additional observations from a re-analysis of the deposited data

Results flagged for a closer look

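In 5 of 58 groups looked at (29 genes in 2 groups of 5 arrays), 1 array lay far from the other 4, with a gap to its nearest neighbour of over 0.71 of the group's range on the log2 scale. Chance flags about 1 in 20 groups. All 5 were in the knockout group and in knockout 1 or knockout 5.

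For Slc44a1, knockout 1 read 576.4 and the next knockout 832.0, a gap of 0.861 of the range. For Slc44a3, knockout 5 read 244.8 and the next knockout 481.5, a gap of 0.774. For Pipox, knockout 5 read 304.6 and the next knockout 534.4, a gap of 0.824. Knockout 5 was also low for Cth, at 794.1 beside 1316.7 in the next knockout (0.714), and knockout 1 was high for Mat1a, at 38.2 beside 29.9 (0.771). Knockout 1 had the lowest and knockout 5 the highest mean of the ileum marker list (-1.02 and 1.09). Knockout 5 was also the knockout array with a low mean of the proliferation list (-0.48, against 0.36 to 0.77 in the others). The part of either list in these gaps was not tested.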

How the results depend on the processing

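The count of 0 members called held under 10 alternatives that kept all arrays, and with 1 array left out it ran from 0 to 1, the 1 being Slc44a4 without knockout 1. The count over all genes was 76, against 142 with array weights, 27 with the replicate block, 4 with the ileum list mean as a covariate and 261 at a threshold of 0.1. With 1 array left out it ran from 11 without knockout 2 to 268 without knockout 1, and it moved by over 1.5 times without each array other than knockout 5 (59). The replicate block changed no call among the 9 members, and it ended the call of Pipox (adjusted p = 0.0628). Of 168 values of members under the alternatives, 161 kept their direction. The 7 that turned were near 0 in genes that were not called: Dmgdh at 0.0483 with the ileum list mean as a covariate, and, over the omissions of single arrays, Slc44a1 (-0.123 to 0.0802), Slc44a3 (-0.0258 to 0.289) and Dmgdh (-0.0700 to 0.0397). The cause was not tested. Slc44a5, Bhmt, Dmgdh and, outside the members, Mat1a gave no value with the dimmest 30% of genes left out, and signal over background limits what can be said of them.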
